A study of Mus musculus with 12 samples.

Results

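The RKI and LC1 mouse lines were compared with each other, whatever the genotype of the embryo, over all 12 libraries of the study, 6 from each line. Each library is the polyadenylated RNA of 1 whole brain at embryonic day 14.5. LC1 is a conserved non-coding element upstream of Pou3f2, a gene for a POU-domain transcription factor of neurons. The LC1 line gave 3 wild-type embryos (6, 26 and 73) and 3 knockout embryos lacking the element (7, 22 and 71). The RKI line gave 3 wild-type embryos (A2, A9 and A16) and 3 homozygous embryos whose copies of that element carry a human variant by knock-in (A1, A10 and A18). All 12 embryos are labelled C57BL/6J. The 6 LC1 embryos are female, and the RKI embryos are 2 females (A9 and A10) and 4 males (A1, A2, A16 and A18). The line coincides with the experiment in which the embryos were bred and handled, so the line and the experiment cannot be told apart. No label names litters or founder animals, and p-values measure the spread between these embryos.

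Of 15359 autosomal genes tested, 2 differed between the lines at an adjusted p under 0.05, which is 0.013% of them. Both were higher in RKI, and both had all 6 RKI embryos above all 6 LC1 embryos. They are Gabra2, which encodes the alpha 2 subunit of the GABA-A receptor, and Gm28438, a nuclear copy of the mitochondrial gene mt-Nd3. For most autosomal genes the interval of the line difference kept to a small fold. With sex in the model that difference rests largely on the RKI females A9 and A10. The 95% interval of the line difference stayed within a fold of 2 for 14128 genes (91.985%) and within a fold of 1.5 for 12117 (78.892%). At an unadjusted p under 0.05 there were 934 genes, or 6.08%.

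GABA-A receptors are chloride channels gated by the transmitter GABA and assembled from alpha, beta, gamma and other subunits. In the fetal brain, where chloride inside young neurons is high, GABA commonly depolarises them. The alpha subunit helps to set where on the neuron the receptor sits and how it responds to benzodiazepines. Nuclear copies of mitochondrial DNA, the setting of the other gene, are stretches of the mitochondrial genome that were inserted into chromosomes during evolution. Such copies are usually not known to make protein, and reads from them are hard to separate from mitochondrial RNA.

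**Figure D1:**
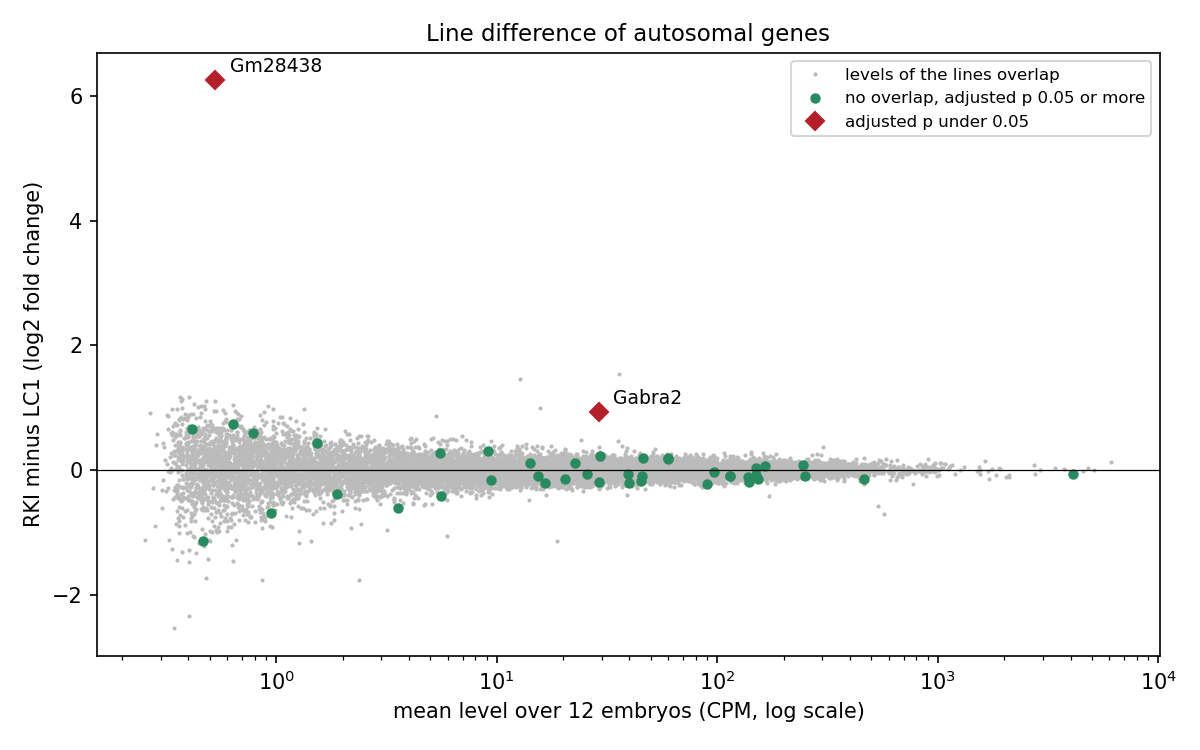
Difference between the lines for each autosomal gene tested (log2 fold change, RKI minus LC1) against its mean level over 12 embryos (CPM, log scale). Red diamonds mark the 2 genes with an adjusted p under 0.05, green circles mark the 41 other genes whose levels did not overlap between the lines, and grey points mark the rest. Gm28438 at 6.25, a fitted value that depends on the prior count, and Gabra2 at 0.93 stand apart from the genes around them on the level axis.

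Gabra2 (ENSMUSG00000000560) spans 70957597 to 71095849 on the minus strand of chromosome 5 (GRCm38, GENCODE M21). Its level, in counts scaled to a common library total (CPM), was 22.8, 20.9 and 19.5 in LC1 wild types 6, 26 and 73. In LC1 knockouts 7, 22 and 71 its level was 18.4, 19.4 and 18.4 CPM. In RKI wild types A2, A9 and A16 it was 41.9, 38.7 and 35.8 CPM, and in RKI homozygotes A1, A10 and A18 it was 37.8, 37.2 and 36.3 CPM. The lowest RKI embryo, A16, thus stood well above the highest LC1 embryo, 6, and males and females of RKI were intermixed. The means were 19.9 ± 1.69 CPM in LC1 and 38.0 ± 2.18 CPM in RKI (SD, n = 6 each). RKI exceeded LC1 by a log2 fold change of 0.93 (SE 0.075), a fold of 1.91 with a 95% interval of 1.71 to 2.13. The quasi-likelihood test of edgeR gave an adjusted p of 3.04e-06.

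The Gabra2 difference had nearly the same size in each genotype. Between wild types alone it was 0.88 with SE 0.092 (adjusted p = 0.00787 by edgeR), and between mutants alone it was 0.98 with SE 0.070 (adjusted p = 4.95e-08 by edgeR). These comparisons share no library, and neither holds a term for sex. The difference between them was 0.10 with SE 0.11, and its adjusted p by edgeR was 0.99978. With female libraries only, where RKI is A9 and A10, the value was 0.94. With sex in the model the fit over all libraries rests largely on the same RKI embryos, so this is no separate check. With male RKI libraries only, a setting added after the data were seen, the value was 0.94. That last setting compares RKI males with LC1 females, so line and sex cannot be told apart in it. Leaving out each embryo in turn kept the difference between 0.91 and 0.97, where with sex in the model leaving out an RKI male could move it little.

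**Figure D2:**
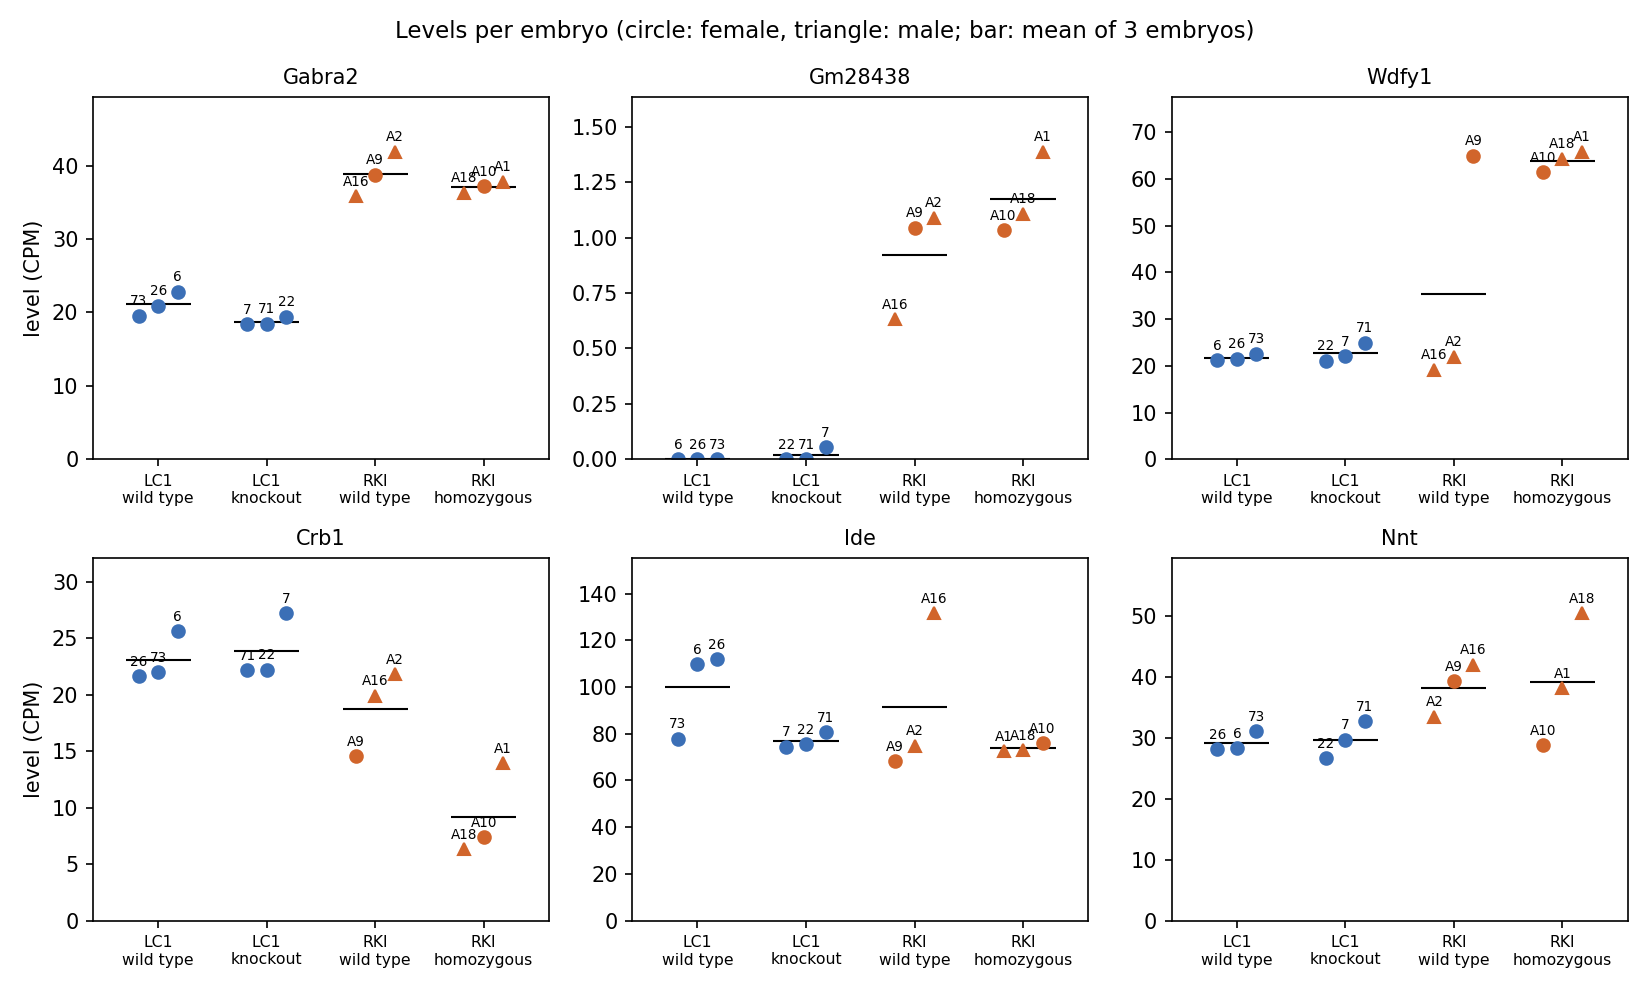
Level in CPM of 6 genes in each of the 12 embryos, by line and genotype, with circles for females, triangles for males and a bar at the mean of 3 embryos. Gabra2 and Gm28438 separate all 6 RKI embryos from all 6 LC1 embryos, Wdfy1 and Crb1 split the RKI embryos, Ide is high in 6, 26 and A16, and Nnt overlaps between the lines.

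Gabra2 was the 1 called gene among the autosomal GABA-A receptor subunits, of which 11 were tested. Of these, 10 had fitted values above 0 and the median was 0.12, against a median of -0.0063 over all genes tested. Levels between subunits were compared per gene length, with the deposited RPKM. In LC1, Gabra2 at 8.30 ± 0.677 RPKM lay within the spread of Gabrb2, a beta subunit, at 9.08 ± 0.568 and Gabra5 at 8.27 ± 1.05 RPKM. In RKI, Gabra2 at 15.9 ± 0.923 RPKM stood above Gabrb2 at 9.23 ± 0.966 RPKM (SD, n = 6 for each value). Gabra2 was thus level with the other alpha subunit Gabra5 in LC1 and higher than it in RKI, where Gabra5 was at 8.85 ± 1.56 RPKM.

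The other subunits of the same cluster on chromosome 5 did not pass the test. Gabrg1 had a line difference of 0.12 (log2 fold change) with SE 0.14, Gabra4 of -0.04 with SE 0.16 and Gabrb1 of 0.39 with SE 0.12. The 3 had adjusted p of 0.906, 0.9751 and 0.79958 by edgeR. Gabrb1 ran from 10.3 to 13.2 CPM in LC1 and from 10.5 to 17.3 CPM in RKI, and its value was 0.19 without the term for sex. Among the 23 other tested genes within 3 Mb of Gabra2, 8 had values above 0 and 15 below, and 0 had levels that did not overlap between the lines. Of these genes, 2 had an unadjusted p under 0.05, Gabrb1 and Corin, named after their values were seen. Corin, a serine protease gene with a value of -2.34 and an adjusted p of 0.79958, lay under 1 CPM in every embryo.

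**Figure D3:**
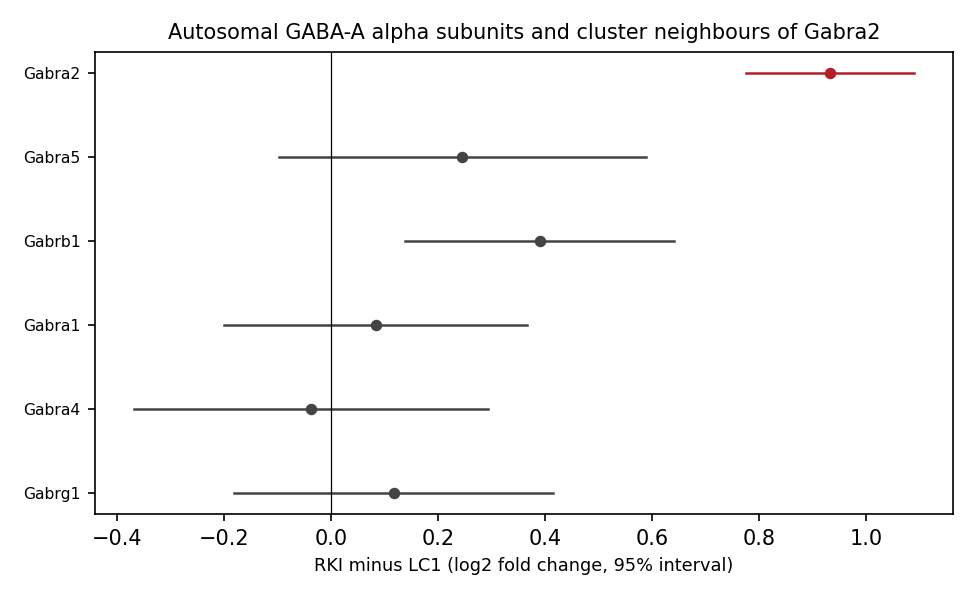
Line difference (log2 fold change, RKI minus LC1, with its 95% interval) of the autosomal alpha subunits of the GABA-A receptor that were tested and of Gabrb1 and Gabrg1, which share the chromosome 5 cluster with Gabra2. They are ordered from the highest to the lowest level per gene length in LC1. Gabra2, in red, is the 1 subunit with an adjusted p under 0.05, at 0.93 with an interval of 0.77 to 1.09.

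Gm28438 (ENSMUSG00000101939) is annotated as an unprocessed pseudogene and spans 24612775 to 24613119 on the minus strand of chromosome 1 (GRCm38, GENCODE M21). Over its 345 bases it has 344 in common with mt-Nd3, which encodes a subunit of respiratory complex I and lies at 9459 to 9806 of the mitochondrial genome. The single substitution is T3C, written as the mitochondrial base, its position counted from 1 at the start of the gene, and the base of the nuclear copy. The first 60 bases of each are shown because they hold this difference, which is in capitals. They were read from the GRCm38 genome, from the plus strand at chrM:9459-9518 for mt-Nd3 and from the minus strand at chr1:24613060-24613119 for Gm28438.
mt-Nd3: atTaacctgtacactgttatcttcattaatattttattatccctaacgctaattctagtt
Gm28438: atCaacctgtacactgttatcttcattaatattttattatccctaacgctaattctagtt

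Reads assigned to Gm28438 were nearly confined to RKI, at low counts. In the 6 LC1 libraries there was 1 read in all, in knockout 7, and the other 5 libraries had 0. In RKI wild types A2, A9 and A16 there were 28, 25 and 14 reads, and in homozygotes A1, A10 and A18 there were 32, 21 and 29. These are 149 reads against 1, a ratio per library size of 128 with an exact 95% interval of 22.6 to 5079.7 that covers counting error only. Its adjusted p by edgeR was 4.18e-05. Between mutants alone the adjusted p by edgeR was 0.000109. Between wild types alone it was 0.0793, and there LC1 had 0 reads.

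The reads of a near-identical pair cannot be assigned with confidence, so the Gm28438 values are uncertain as a level of transcription from chromosome 1. The mitochondrial gene mt-Nd3 itself was given 1, 2 and 0 reads in LC1 wild types 6, 26 and 73 and 1, 3 and 0 in knockouts 7, 22 and 71. In RKI it was given 0 in all but A18, which had 1. Adjacent nuclear copies on chromosome 1 that match the mitochondrial genome over their whole length (Gm28439, Gm10222, Gm28437, Gm10925 and Gm28661) had 0 to 5 reads in every library. The mitochondrial genes mt-Co2 and mt-Co3, which such copies match over nearly their whole length, had 0 reads in all 12 libraries, whereas mt-Nd4 had 26776 to 44637. In the deposited transcript estimates Gm28438-001 was at 558 to 852 CPM in LC1 and 537 to 621 CPM in RKI. There its log2 fold change was -0.28 with SE 0.12, which did not pass the test. The gene counts and transcript estimates of Gm28438 therefore differed in level and in the sign of the fitted difference. Whether the mitochondrial sequence itself differs between the lines was not tested.

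Several genes are known to vary between C57BL/6J and related strains or to segregate within colonies of C57BL/6J, and Gabra2 is one of them. Such a list was drawn up for these lines with earlier results of these data known, and 7 of its members were tested. Gabra2 was the 1 member that passed, and its place on the list is no separate support for its difference. No sequence of these loci was read here, and the strain background behind any of these levels was not tested.

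Wdfy1, which encodes an adaptor protein of endosomes in Toll-like receptor signalling, divided the RKI embryos. It ran from 21.1 to 24.9 CPM in the 6 LC1 embryos. It was at 65.0 CPM in A9, 65.8 in A1, 61.4 in A10 and 64.4 in A18, and at 22.0 in A2 and 19.1 in A16. So 4 RKI embryos of both sexes and both genotypes stood at 61.4 CPM or more, and 2 wild-type males stood at the LC1 level. The line difference was 1.54 with SE 0.36 and an adjusted p of 0.79958 by edgeR. It passed between mutants alone (1.497, adjusted p = 3.28e-11 by edgeR) and with female libraries only (1.51, adjusted p = 9.04e-12 by edgeR). Neither of these comparisons holds A2 or A16. Between wild types alone the value was 0.71.

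Crb1, which encodes an apical polarity protein of retina and brain, was lower in part of the RKI embryos. Its LC1 levels ran from 21.6 to 27.2 CPM. The RKI embryos were at 21.8 CPM in A2, 19.9 in A16, 14.5 in A9, 14.0 in A1, 7.37 in A10 and 6.30 in A18. A2 again lay within the LC1 range, as it did for Wdfy1, and A16 just below it. The line difference was -1.14 with SE 0.36 and an adjusted p of 0.79958 by edgeR. It was -0.30 between wild types and -1.37 between mutants, and the difference between these was -1.08 with an adjusted p of 0.99978 by edgeR. Without A1 that difference was -1.46 and passed (adjusted p = 0.0281 by edgeR).

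Ide, which encodes insulin-degrading enzyme, did not follow the line. It was at 110 CPM in LC1 wild type 6, 112 in LC1 wild type 26 and 132 in RKI wild type A16, and from 68.3 to 80.6 CPM in the 9 other embryos. All 3 high embryos were wild types, from both lines. Fgfbp3, which encodes a binding protein for fibroblast growth factors and lies in the same region of chromosome 19, ran from 16.8 to 24.5 CPM in LC1 and 14.7 to 19.8 CPM in RKI. The line differences were -0.27 with SE 0.23 for Ide and -0.27 with SE 0.14 for Fgfbp3. The Fgfbp3 value was -0.48 without A10 and -0.064 without A9.

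Nnt encodes the mitochondrial nicotinamide nucleotide transhydrogenase, which regenerates NADPH. It ran from 26.6 to 32.7 CPM in LC1 and from 28.8 to 50.4 CPM in RKI, where A10 was lowest and A18 highest. Its difference was 0.22 with SE 0.14, and 0.40 without the term for sex, with adjusted p by edgeR of 0.831 and 0.817. Cyfip2, a regulator of actin assembly, was at 356 ± 14.1 CPM in LC1 and 359 ± 20.5 CPM in RKI (SD, n = 6 each). Nlrp12, under each of its identifiers, and Entpd4, also on the list, were at 0 counts in all 12 libraries. How reads that match several places were counted is not stated, so 0 counts need not mean no expression.

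Pou3f2, the gene beside the altered element, was level between the lines at 96.8 ± 6.77 CPM in LC1 and 95.02 ± 3.07 CPM in RKI (SD, n = 6 each). Its line difference was 0.0024 with SE 0.065, a fold of 1.002 with a 95% interval of 0.912 to 1.10. Among the 22 tested genes within 3 Mb of Pou3f2, 0 passed the test and 0 had levels that did not overlap between the lines.

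Levels of 43 autosomal genes (0.28%) did not overlap between the 6 RKI and 6 LC1 embryos, 17 with RKI higher (0.111%) and 26 with RKI lower (0.169%). For a gene unrelated to the line, at most a share of 0.002165 of the 924 splits into 6 and 6 gives no overlap. The share of genes seen lies little above that, so lack of overlap alone does not mark a line difference. Besides Gabra2 and Gm28438 there were 41, on 17 chromosomes, with adjusted p of 0.79958 or more by edgeR. Their fitted differences ran from -1.15 to 0.74. The median of their absolute log2 fold changes was 0.17, and 21 of the 41 had an unadjusted p under 0.05.

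Of the 15 with higher levels in RKI some examples follow, chosen after their values were seen. Itpr1, a calcium release channel of the endoplasmic reticulum, ran from 52.3 to 59.0 CPM in LC1 and 60.8 to 68.0 CPM in RKI, a difference of 0.19. Trpm2, a cation channel, ran from 4.32 to 5.64 CPM in LC1 and 5.72 to 6.46 CPM in RKI, a difference of 0.27. Glrb, the beta subunit of the glycine receptor, ran from 20.3 to 22.5 CPM in LC1 and 22.6 to 25.1 CPM in RKI, a difference of 0.11. Other genes in this direction encode the endosomal GTPase Rab4a (0.23), the chondroitin sulfate sulfotransferase Chst15 (0.18), the ciliary protein Tmem107 (0.31) and the ephrin receptor Epha5 (0.08).

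Among the 26 with lower levels in RKI were 2 homeodomain transcription factors. Lhx1 ran from 40.5 to 45.7 CPM in LC1 and 27.7 to 40.3 CPM in RKI, a difference of -0.21. Uncx ran from 17.0 to 18.9 CPM in LC1 and 13.8 to 16.2 CPM in RKI, a difference of -0.21. Fgf7, a fibroblast growth factor, was near the lower end of detection at 1.03 to 1.26 CPM in LC1 and 0.492 to 0.973 CPM in RKI, a difference of -0.69. Cirbp, a cold-inducible RNA-binding protein, ran from 91.8 to 111 CPM in LC1 and 72.2 to 89.6 CPM in RKI, a difference of -0.23. Others include the ribosomal protein gene Rps15a (-0.19), the cardiolipin synthase gene Crls1 (-0.19), the histone deacetylase gene Hdac3 (-0.10) and the actin gene Actb (-0.07). These examples too were chosen after their values were seen, and none passed the test over all 12 libraries. Between wild types alone, Lhx1 had a difference of -0.47 that passed with DESeq2 (adjusted p = 0.0180) and not with edgeR (adjusted p = 0.460). DESeq2 called 10 autosomal genes between wild types, where 14984 passed the low-count filter. That fit had no term for sex, and the RKI wild types A2 and A16 are male. Higher in RKI wild types were Gabra2, Gm28438, Tshz3 (0.43) and Mir99ahg (0.60). Lower in RKI wild types beside Lhx1 were Gata3 (-1.45, adjusted p = 4.46e-05 by DESeq2), En1 (-2.89), Mab21l2 (-0.78), C1ql1 (-0.91) and Ebf3 (-0.43). Of these, Gata3 and En1 are on the list of midbrain and hindbrain markers. Between mutants alone, DESeq2 called neither Lhx1 nor any of these genes lower in RKI wild types. With no low-count filter in edgeR, the line difference in mutants minus that in wild types was 1.46 for Gata3 and 0.81 for Mab21l2. The wild-type values enter this difference, and the genes were picked by them, so a sign opposite to them is no separate result. In that setting the spread of each gene itself hardly entered the test. With the filter, 0 autosomal genes passed for this difference by edgeR. Beside Lhx1 and Uncx, 15 of 18 tested midbrain and hindbrain marker genes had fitted values below 0, with a median of -0.20. Their summed level ran from 110 to 142 CPM in LC1 and 97.1 to 124 CPM in RKI, and its part in these differences was not tested.

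**Figure D4:**
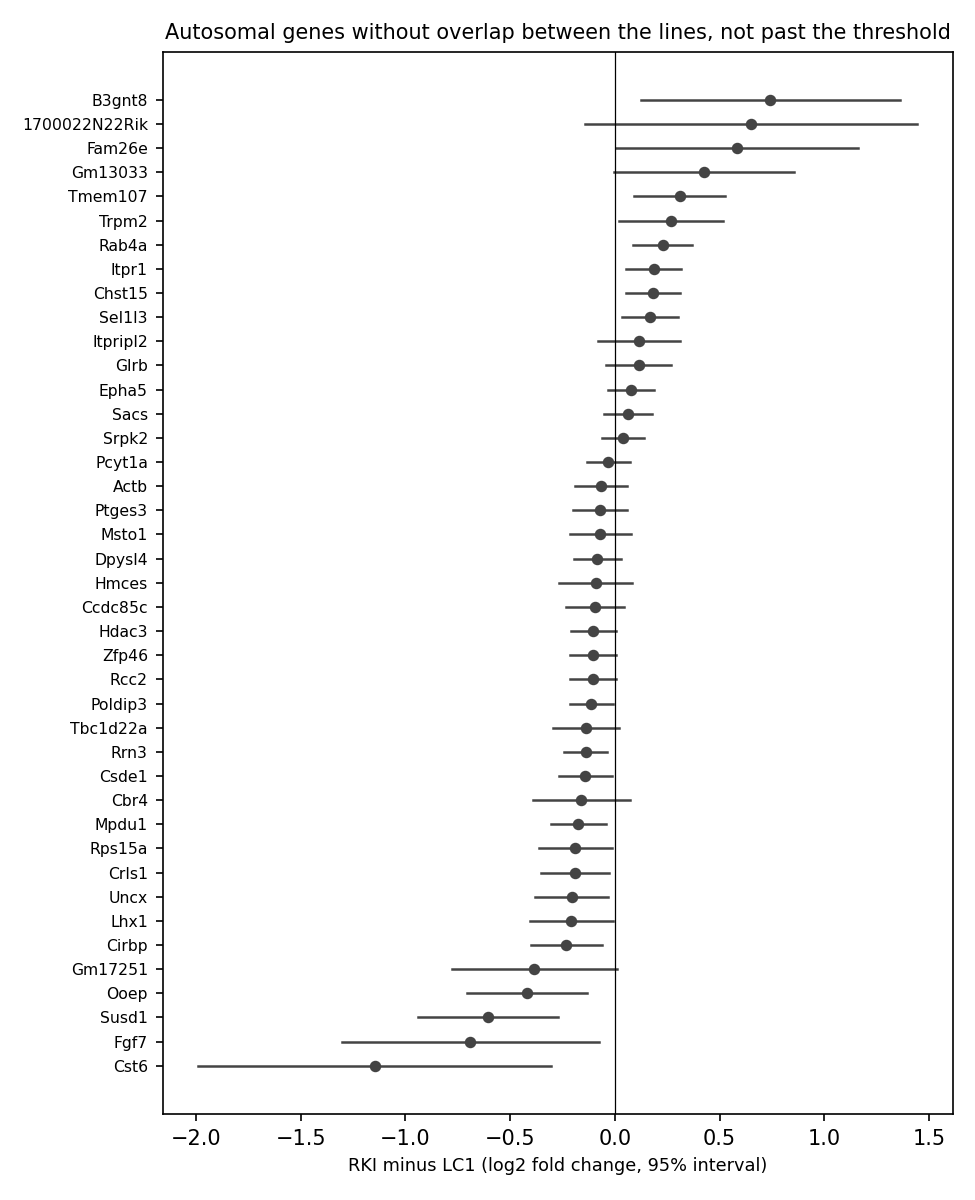
Line difference (log2 fold change, RKI minus LC1, with its 95% interval) of the 41 autosomal genes whose levels did not overlap between the lines and whose adjusted p was 0.05 or more. Values run from 0.74 for B3gnt8 to -1.15 for Cst6, and many intervals cross 0.

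In some genes with a small p, A9 and A10 stood apart from the other RKI embryos. One is Gmps, a gene of purine synthesis named after its values were seen, which had a difference of -0.24 with SE 0.052 and an adjusted p of 0.637 by edgeR. It was at 93.1 CPM in A9 and 95.3 CPM in A10, at 104 to 111 CPM in the RKI males, and at 107 to 114 CPM in LC1. The RKI males thus overlapped LC1, while the RKI females lay below both. Sex varies within RKI alone, so the fitted line difference rests largely on A9 and A10 against LC1. Without the term for sex the same 2 autosomal genes passed.

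Comparisons on fewer embryos gave few calls as well. Wild types alone gave 1 autosomal gene (0.00667%), Gabra2, and 0 when LC1 embryo 6, 26 or 73 or RKI embryo A2 was left out, 2 without A16 and 6 without A9. Mutants alone gave 4 (0.0266%), which were Gabra2, Gm28438, Wdfy1 and Efcab7, and 7 without 71 or A1 and 11 without A10. Efcab7, which encodes a protein of the primary cilium, ran from 2.53 to 4.65 CPM in LC1 and from 4.55 to 9.62 CPM in RKI. Female libraries alone gave 5 (0.0318%), which were Gabra2, Gm28438, Wdfy1, Mir99ahg and Aim2, and 3 without 7 or A9. Aim2, a cytosolic DNA sensor, was the 1 with a lower level in RKI (0.00635%, against 0.0254% higher), at 6.11 to 7.97 CPM in LC1, 2.47 in A9 and 4.33 in A10. In RKI males, however, Aim2 ran from 3.40 to 7.75 CPM. By edgeR, 0 autosomal genes passed for the difference of the line effect between wild types and mutants, with 361 (2.35%) at an unadjusted p under 0.05. DESeq2 also gave 0. With edgeR, Wdfy1 passed without A9 or without A10 (1.60 in each), and Crb1 passed without A1.

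No gene list apart from 3 had a member past the threshold, out of 35 lists with tested members. The 3 were the GABA-A receptor, the genes known to vary around C57BL/6J, and predicted genes with Gm names, with 1 called member each. All 26 tested proliferation genes had fitted values below 0, with a median of -0.14, and 1 had an unadjusted p under 0.05. Their summed level ran from 2185 to 2469 CPM in LC1 and from 1996 CPM in A9 to 3046 CPM in A16 in RKI. Ribosomal protein genes had 14 of 73 values above 0 and a median of -0.08, and their summed level overlapped between the lines. The libraries carried the markers of brain, with summed radial glia genes at 3497 to 4077 CPM and pallial neuron genes at 3860 to 4816 CPM. Of the Hox genes, which mark hindbrain, 0 of 17 passed the low-count filter. How much hindbrain the libraries hold was not tested. Blood and microglia markers were present and overlapped between the lines, at 1336 to 2403 CPM in LC1 and 1196 to 2177 CPM in RKI for blood and 211 to 287 CPM and 222 to 258 CPM for microglia. In whole brains fewer cells of a type and less RNA per cell cannot be told apart.

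Total gene counts ran from 18192984 to 26566769 per library. In a principal component analysis of autosomal genes, A16 stood apart on the first component, at 27.7 against -14.65 to 11.99 for the others. The third component, with 10.6% of the variance, ran from -15.0 to 0.318 in LC1 and from 2.71 to 11.1 in RKI. The lines thus did not overlap on that component. Without A16 the same count of 2 autosomal genes passed the test. A16 is a male, and with sex in the model the line difference rests largely on A9 and A10. Leaving out A16 could therefore move that difference little.

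Transcript estimates gave few calls as well. Of 45647 autosomal transcripts tested, 5 passed (0.011%), 1 higher (0.00219%) and 4 lower (0.00876%) in RKI. Levels of 123 (0.269%) did not overlap between the lines, 59 with RKI higher (0.129%) and 64 with RKI lower (0.14%). As for genes, at most a share of 0.002165 of splits gives no overlap for a transcript unrelated to the line, and the share seen lies little above it. Gabra2-004 was the 1 transcript both called and without overlap (0.00219%). It ran from 19.6 to 23.6 CPM in LC1 and from 37.6 to 43.4 CPM in RKI, with a log2 fold change of 0.95, SE 0.072 and an adjusted p by edgeR of 0.00272. It is the 1 Gabra2 transcript in the deposited table and is annotated as subject to nonsense-mediated decay, so it is no separate measure of an isoform.

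The other 4 called transcripts did not separate the lines. They were Lrif1-002, Lrif1-005, St18-013 and Stx5a-014, and each was estimated at 0 in A9 and A10 and above 0 in the other 10 embryos. Lrif1-002 ran from 12.3 to 19.3 CPM in LC1 and was at 20.7, 13.8, 18.8 and 13.7 CPM in the RKI males A2, A16, A1 and A18. Both zeros fall on the females of RKI, where the line term and the sex term are set against each other. The genes themselves had line differences of -0.08 for Lrif1, -0.24 for St18 and 0.06 for Stx5a. Without the term for sex 1 transcript passed (0.00219%), Gabra2-004. Without A9 the count was 19 and without A10 it was 58, and it was 2 or 3 without 6, 26, 7, 22, 71, A2, A16 or A18.

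Some transcripts had levels without overlap between the lines and did not pass the test. Bub1-003, a non-coding transcript of the mitotic checkpoint kinase gene Bub1, was estimated at 0 in all 6 LC1 embryos. In RKI it was at 1.06, 1.23 and 0.790 CPM in A2, A9 and A16 and at 1.99, 1.17 and 1.03 CPM in A1, A10 and A18. Its adjusted p by edgeR was 0.275, and the gene Bub1 had a difference of -0.19. Gm15989-001, a processed pseudogene, ran from 0.188 to 0.507 CPM in LC1 and from 1.45 to 3.83 CPM in RKI, with an adjusted p by edgeR of 0.289. Clip1-001, a transcript of a microtubule plus-end protein gene, ran from 6.97 to 9.47 CPM in LC1 and 4.20 to 6.36 CPM in RKI, while the gene Clip1 had a difference of 0.05. The gene Gm15989 had a difference of 0.83, in the direction of its transcript, whereas for Bub1 and Clip1 the fitted signs of transcript and gene were opposite. The uncertainty of the estimates was not modelled.

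**Figure D5:**
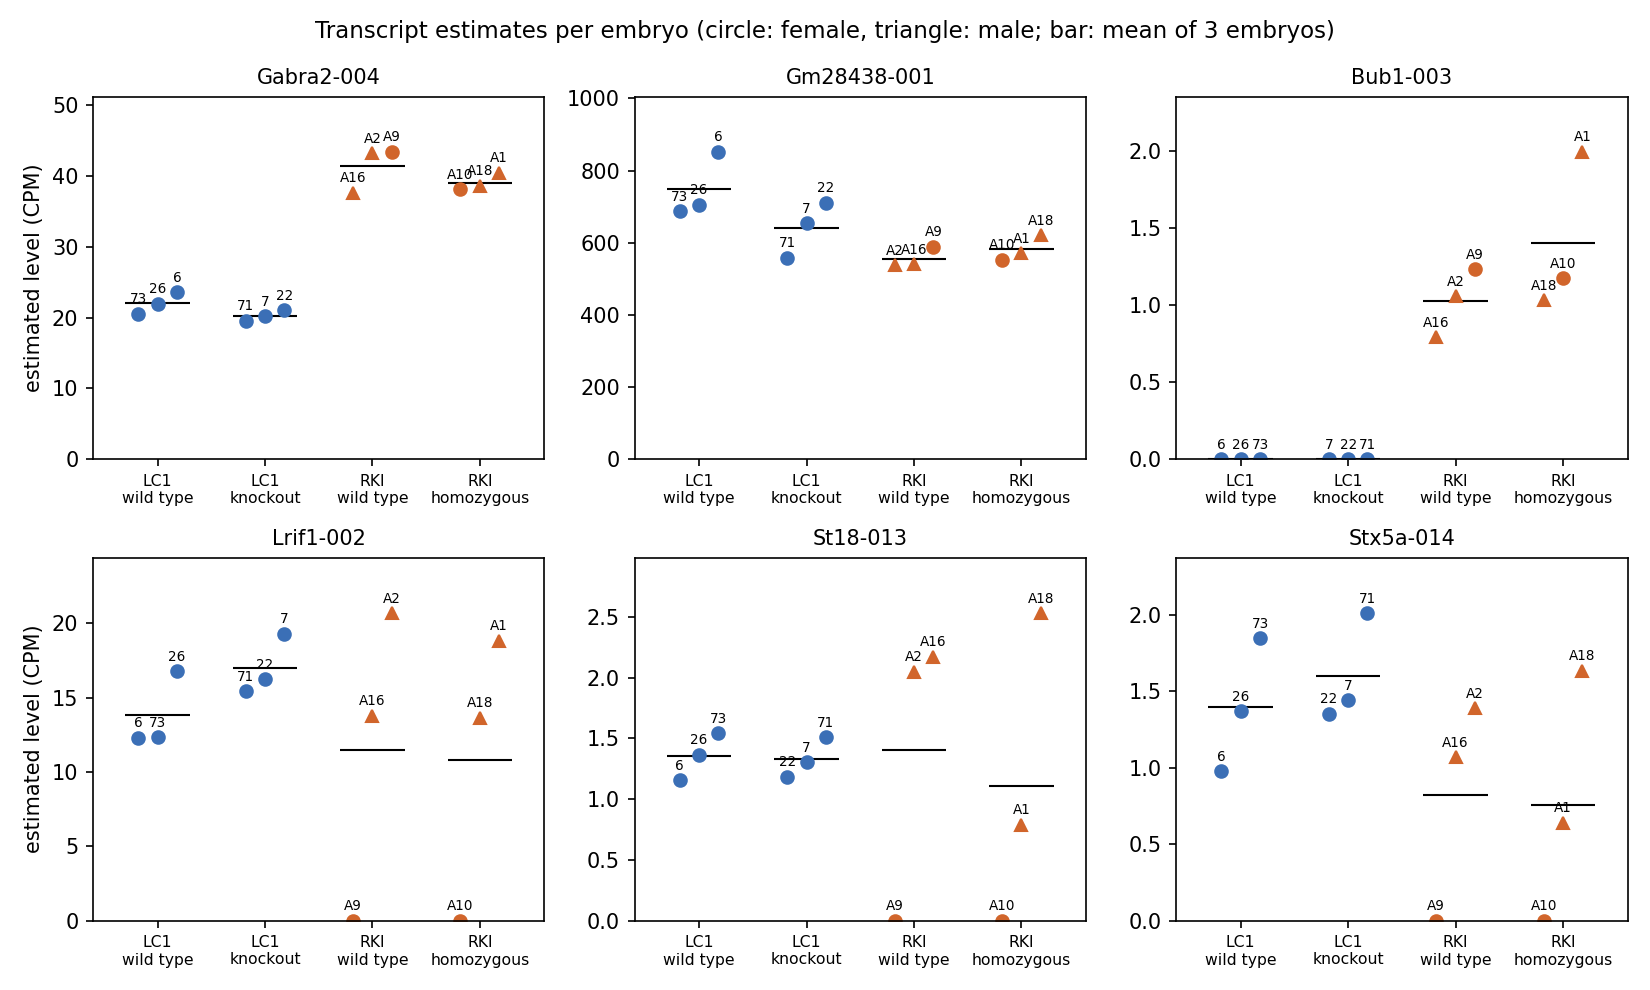
Estimated level in CPM of 6 transcripts in each of the 12 embryos, by line and genotype, with circles for females, triangles for males and a bar at the mean of 3 embryos. Gabra2-004 and Bub1-003 do not overlap between the lines, Gm28438-001 overlaps between them at 537 to 852 CPM, and Lrif1-002, St18-013 and Stx5a-014 are at 0 in A9 and A10.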

How the data were processed

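The authors deposited counts per gene, RPKM per gene and estimated counts per transcript for 12 libraries. Per the submitters' processing notes, the tools included STAR 2.0.4b, featureCounts 1.4.5, Subread, limma and edgeR. Their roles, the genome build and the strand setting were not given in the sources used here. Of 41264 gene rows, 574 repeated an identifier with the same counts, and 1 row was kept for each of 40690 identifiers. Positions were matched by Ensembl identifier to GENCODE M21 (GRCm38) for 40340 of them.

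Counts were tested with edgeR 4.0.16 in R 4.3.3 (quasi-likelihood test, TMM scaling, filterByExpr by group, Benjamini-Hochberg adjustment at 0.05). The design held line, genotype and sex, which left 8 residual degrees of freedom, and positive values are higher in RKI. There were 16002 genes past the filter, with a common biological coefficient of variation of 6.78%. Estimated counts were rounded and 47772 transcripts tested alike. CPM uses TMM-adjusted library totals, values are mean ± SD and intervals are at 95%. The column-name suffix states the sex given in the labels. Alternatives included DESeq2 1.42.0, limma 3.58.1 (voom), other scaling and filters, single-sex and single-genotype fits and leaving out each embryo. The single-genotype fits held line alone, with no term for sex. The scripts were tested on simulated data.

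Named genes are those called without overlap and with at least 1 CPM, measured members of the list known to vary around C57BL/6J, Pou3f2, and called list members. Members, lists and tests were chosen with earlier results of these data known.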

Additional observations from a re-analysis of the deposited data

Results flagged for a closer look

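In 2 of 18 groups of 6 embryos checked, 1 embryo lay farther from the other 5 than Dixon's criterion allows, where chance alone gives about 1 group in 20. Ide was at 132 CPM in the RKI wild type A16, and the gap to the next RKI embryo, at 75.9 CPM, took up 0.88 of the range. Gm28438 was at 0.0534 CPM in the LC1 knockout 7, which is 1 read, and at 0 in the other 5 LC1 embryos, so that this 1 read alone sets the gap.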

How the results depend on the processing

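The call of Gabra2 held in all 23 alternatives (0.88 to 0.98, adjusted p up to 0.00787), and that of Gm28438 in 22, the exception being wild types alone. The count of 2 autosomal genes was 2 whichever embryo was left out. It was 5 with DESeq2 (among them Gmps and Aim2), 5 with female libraries only, 4 with mutants only and 1 with wild types only, and the counts of called genes without overlap in those last 3 settings were 5, 4 and 1. With no low-count filter it was 30, of which 2 did not overlap between the lines. There the error degrees of freedom were 220000 at the median against 18.6, so the spread of each gene itself hardly entered the test. With no filter the counts were 35 for wild types, 30 for mutants, 23 for females and 17 for the difference between genotypes, and DESeq2 gave 10 for wild types. Leaving out 1 embryo gave 0 to 6 for wild types, 3 to 11 for mutants, 3 to 7 for females and 0 to 1 for the difference between genotypes. Called transcripts numbered 1 without the term for sex, 3 with male RKI libraries only and 2 to 58 on leaving out 1 embryo. Pou3f2, near 0, changed sign without the term for sex (-0.025), with male RKI libraries only (-0.034), with mutants only (-0.078) and on leaving out 1 embryo (-0.044 to 0.059, with -0.022 without embryo 6 and -0.0087 without 22). Cyfip2 was -0.024 with mutants only. Leaving out 1 embryo put Cyfip2 between -0.093 and 0.15, Nnt between -0.086 and 0.49 and Ide between -0.56 and 0.0085, with the sign turned without A9, and Fgfbp3 between -0.48 and -0.064. No paired analysis was possible because the groups share no replicate numbers. With neighbouring embryo numbers as a random block in limma (correlation 0.056) the same 2 genes passed. Low counts limit Gm28438, and 2 RKI females limit the line difference with sex in the model. The female-only fit and the fits that leave out an RKI male rest largely on those same females, so they are no separate checks.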

Other observations

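Further genes passed in only some settings. Mir99ahg, the host gene of microRNAs on chromosome 16, ran from 26.8 to 33.7 CPM in LC1 and 29.6 to 50.9 CPM in RKI, and passed with female libraries only (0.47, adjusted p = 0.0343 by edgeR). Tshz3, which encodes a zinc finger transcription factor of developing cortex, ran from 46.1 to 52.9 CPM in LC1 and 46.5 to 68.8 CPM in RKI. It passed with male RKI libraries only (0.40, adjusted p = 0.0030 by edgeR), a setting added after the data were seen. That setting compares RKI males with LC1 females, so line and sex cannot be told apart in it. With sex in the model Tshz3 had a difference of 0.21 (adjusted p = 0.79958 by edgeR). With female libraries only, which is largely the same comparison, it was 0.21 (adjusted p = 0.649 by edgeR). The mitochondrial ribosomal RNA gene mt-Rnr2 ran from 1305 to 1902 CPM in LC1 and 1512 to 2179 CPM in RKI, and its difference of 0.39 did not pass (adjusted p = 0.79958 by edgeR). Its counterpart mt-Rnr1 had a difference of 0.32 with the same adjusted p.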
